A study of Sus scrofa with 24 samples.

Results

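Expression of 7 genes of the cell division programme was followed in pig veins joined to an arteriovenous haemodialysis graft, a tube that carries blood from an artery to a vein so that it can be dialysed. The mitotic genes were CCNB1, CDK1, TOP2A, MELK, DLGAP5, MYBL2 and MKI67, taken by name from the annotation inside the array files, with every probe of each. They had 15 of the 43603 different probes on the array, to which 6121 gene symbols could be assigned. No probe named MKI67 was assigned that symbol, as described below. Total RNA came from 24 samples in 6 groups of 4: the venous anastomosis at day 14 and day 5, the vein segment downstream of the anastomosis at day 14 and day 5, and the external jugular vein control at day 14 and day 5. Days count from graft placement, and the 4 replicates of a group were described as independent experiments with different biological replicates. All groups were unmodified Sus scrofa tissue as far as the labels go. Strain, age, sex and whether the control vein came from a grafted animal were not given in the sources used here, nor was whether day 5 and day 14 samples of one number share an animal. The samples are pieces of vein wall with mixed cell types.

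Cells that divide switch on a shared set of genes late in the cell cycle. Cyclin B1 (CCNB1) binds the kinase CDK1 and the pair drives entry into mitosis, topoisomerase II alpha (TOP2A) untangles the duplicated DNA, and DLGAP5 (also called HURP) stabilises spindle fibres at the chromosomes. MYBL2 (B-Myb) is the transcription factor that, with the MuvB complex, turns these genes on, MELK is a kinase made in dividing cells, and MKI67 encodes Ki-67, the protein that coats mitotic chromosomes and is stained to count proliferating cells. In vein walls exposed to arterial flow and injury, proliferation of smooth muscle cells and fibroblasts is a known element of neointimal thickening.

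The array carried 2 probes for CCNB1, 1 for CDK1, 2 for TOP2A, 1 for MELK, 4 for DLGAP5, 2 for MYBL2 and 3 under the name MKI67, each 60 bases long. Within a gene, probes are numbered from the brightest, and probe 1 stands for the gene in every count. The 4 sequences that follow are whole probes that hold a reading frame without a stop codon. They are shown so that the transcripts read as cyclin B1, topoisomerase II, DLGAP5 and Ki-67 can be looked up.
CCNB1 probe 2 (A_72_P293899): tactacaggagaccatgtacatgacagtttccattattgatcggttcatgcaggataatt
TOP2A probe 2 (A_72_P298629): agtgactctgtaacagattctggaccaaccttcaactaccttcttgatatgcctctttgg
DLGAP5 probe 3 (A_72_P289724): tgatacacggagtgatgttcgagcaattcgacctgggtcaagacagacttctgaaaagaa
MKI67-named probe 3 (A_72_P051041): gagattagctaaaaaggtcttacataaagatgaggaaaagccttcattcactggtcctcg
For CDK1 and MELK, which have a single probe each, the first 30 bases are given so that the transcript behind each value can be looked up.
CDK1 probe 1 (A_72_P293014): ttcccacacgttgtatcaagaacagatagt
MELK probe 1 (A_72_P349918): accattgactttcttagattcacttccata

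Some probes of a gene were not separate measurements, and the sequences show it. Bases 1 to 30 of MYBL2 probe 1 and bases 6 to 35 of MYBL2 probe 2 are given with a run of A in capitals, 2 bases long in probe 1 and 3 bases long in probe 2. Around it the letters are the same, and the 2 probes had a Pearson correlation of 1.00 over the 24 samples, so they read nearly the same target.
MYBL2 probe 1 (A_72_P006016): ggccagcatttccttcAAcctgttggtaca
MYBL2 probe 2 (A_72_P350008): ggccagcatttccttcAAAcctgttggtac
MKI67-named probes 1 and 2 share 19 bases, in capitals in the last 30 bases of probe 1 and the first 30 bases of probe 2.
MKI67-named probe 1 (A_72_P035986): ttagtaactatCATCTTGTATCATTATCCT
MKI67-named probe 2 (A_72_P137636): CATCTTGTATCATTATCCTcaatctagagg
The files call these 2 probes MKI67, but the transcript they cite is listed by RefSeq under NIFK, the gene of a nucleolar protein that binds a domain of Ki-67, with MKI67 as an older synonym. Probe 3 was described only as a proliferation-related Ki-67 antigen and matched no RefSeq gene. They are therefore called MKI67-named, and counts are given over 7 genes and over the 6 others. TOP2A was named TOPOII in the files, an older symbol that RefSeq lists as TOP2A, and MYBL2 probe 2 took its name from an older description alone.

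Values are log2 intensities after background correction and normalisation, so that a difference between groups is a log2 fold change. Between 56.9% and 80.2% of probes were well above background per sample. Of the mitotic probes, 13 were well above background in all 24 samples and DLGAP5 probes 3 and 4 in 23, and all 15 passed the filter on dim probes. The control and the anastomosis sample of one number and day lay on 1 array, the control in the dye Cy3 and the anastomosis in Cy5. All downstream samples were in Cy5 too, so dye and site cannot be told apart in any comparison with the control, while a constant dye shift cancels in the change between days. A jugular control library, day 14 replicate 2, stood apart, with a mean level of contractile smooth muscle markers of 11.42 against a group median of 14.14. No count of mitotic genes called changed when it was left out.

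At day 5, every one of the mitotic genes was higher at the anastomosis than in the jugular control. CCNB1 was 12.4-fold higher, DLGAP5 10.4-fold, MYBL2 10.3-fold, CDK1 9.86-fold, TOP2A 7.74-fold and MELK 5.49-fold, whereas the MKI67-named gene was 1.62-fold higher. All 7 passed the test (limma, Benjamini-Hochberg adjusted p under 0.05 over 36140 probes), as did 15 of 15 probes, where 9.75% of all probes tested were called higher. The median log2 difference was 3.30 over the 7 genes, 3.33 over the 6 genes other than MKI67-named and 0.01 over all probes. These genes were picked with earlier results of the same arrays known, so the count describes them and is not independent evidence of its direction. In a bulk sample, more dividing cells and more mRNA per cell cannot be told apart.

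**Figure D1:**
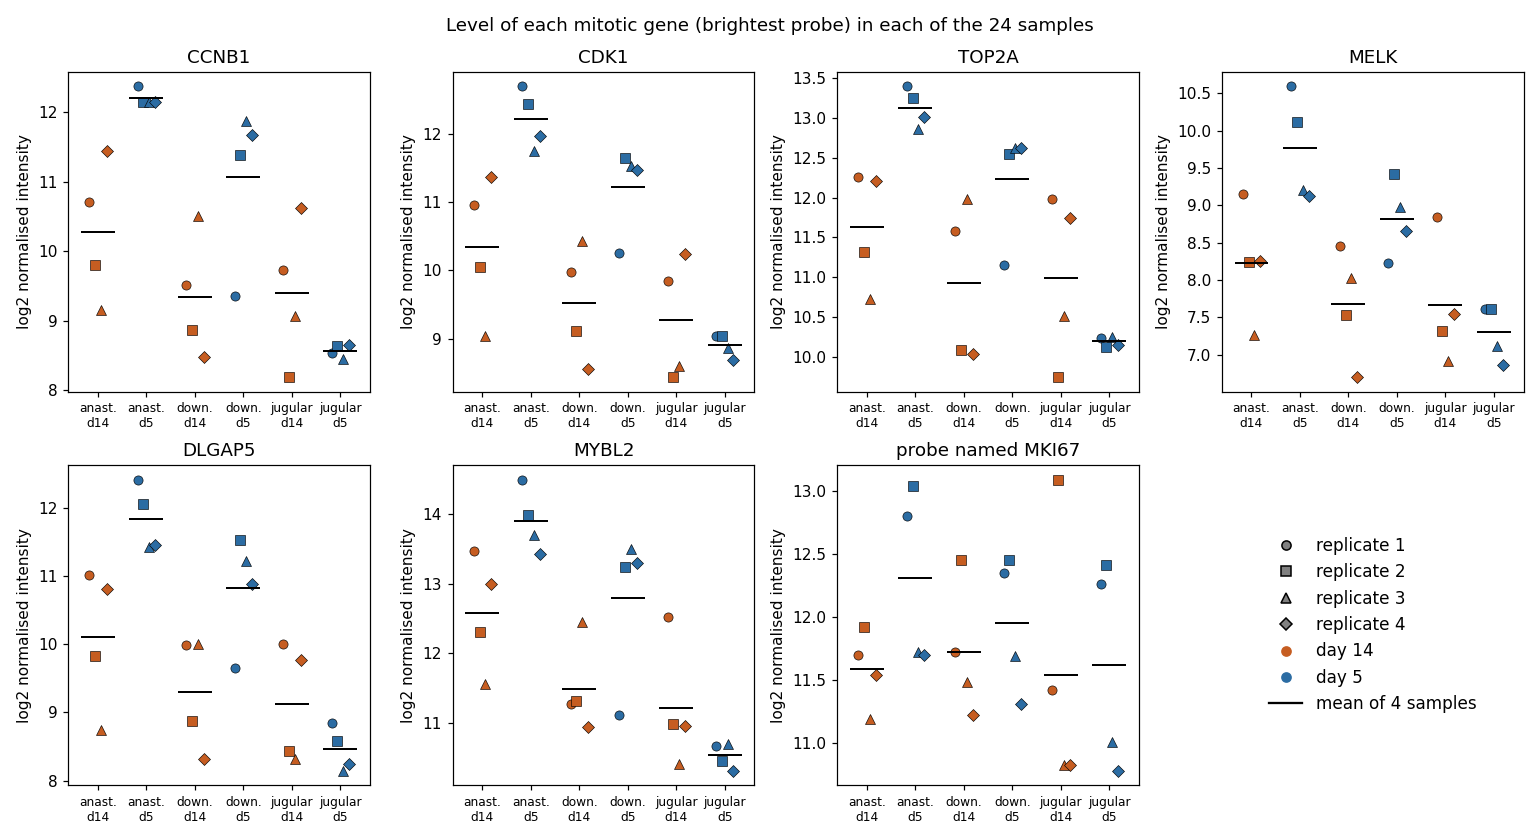
Log2 normalised intensity of the brightest probe of each mitotic gene in the 24 samples, 1 panel a gene, with the anastomosis (anast.), downstream (down.) and jugular groups at day 14 (d14) and day 5 (d5) along the axis; points are samples, shaped by replicate, and bars are means of 4. For CCNB1 the day 5 anastomosis samples lie between 12.14 and 12.37, above all other samples, and the day 5 controls between 8.45 and 8.65.

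CCNB1, the regulatory subunit of the mitotic kinase, had levels of 12.37, 12.14, 12.14 and 12.14 in the 4 day 5 anastomosis samples, against 8.54, 8.64, 8.45 and 8.65 in the jugular controls of the same numbers. Both groups were tight and lay far apart. The difference was 3.63 ± 0.56 (SE; limma adjusted p = 9.73e-04), and the 4 pairs ranged from 3.49 to 3.83. CCNB1 probe 2 gave 3.13 ± 0.47.

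CDK1, the catalytic partner, had 12.69, 12.43, 11.75 and 11.97 in day 5 anastomosis samples, against 9.04, 9.04, 8.87 and 8.69 in jugular controls. The groups did not overlap, and the pairs differed by 2.88 to 3.65. The fitted difference was 3.30 ± 0.49 (SE; limma adjusted p = 8.64e-04).

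TOP2A, which resolves tangled DNA before chromosomes part, had 13.40, 13.25, 12.87 and 13.02 in day 5 anastomosis samples, against 10.23, 10.12, 10.25 and 10.14 in jugular controls. The control samples spanned only 10.12 to 10.25, and no anastomosis sample came near them. The difference was 2.95 ± 0.45 (SE; limma adjusted p = 9.43e-04), with 2.79 ± 0.56 for TOP2A probe 2.

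DLGAP5, the spindle fibre stabiliser, had 12.41, 12.05, 11.43 and 11.45 in day 5 anastomosis samples, against 8.85, 8.58, 8.15 and 8.24 in jugular controls. Here too the groups were separate, with pair differences of 3.21 to 3.55. Its probe 1 gave 3.38 ± 0.49 (SE; limma adjusted p = 7.49e-04), and the other DLGAP5 probes gave 1.84 to 2.30. The spread among these probes exceeded their standard errors, so the fold depended on the probe while the direction did not.

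MYBL2, the transcription factor of the set, had 14.49, 13.98, 13.70 and 13.42 in day 5 anastomosis samples, against 10.67, 10.45, 10.70 and 10.32 in jugular controls. The difference was 3.36 ± 0.53 (SE; limma adjusted p = 0.00104), with no overlap between groups. MELK, the kinase of dividing cells, had 10.59, 10.11, 9.20 and 9.13 against 7.61, 7.61, 7.12 and 6.86 in the same 2 groups. Its difference of 2.46 ± 0.34 (SE; limma adjusted p = 6.28e-04) was smaller than that of the other genes except the MKI67-named one, but the groups were again apart. In both genes replicates 1 and 2 lay above replicates 3 and 4 at the anastomosis.

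The MKI67-named probes behaved unlike the other genes. Probe 1 had 12.80, 13.04, 11.72 and 11.70 in day 5 anastomosis samples, against 12.26, 12.41, 11.01 and 10.78 in jugular controls. The groups overlapped, because replicates 1 and 2 lay above replicates 3 and 4 in both, although each of the 4 pairs was higher at the anastomosis, by 0.54 to 0.92. The difference was 0.70 ± 0.22 (SE; limma adjusted p = 0.0379). Probe 2 gave 0.91 ± 0.19 and probe 3, the one described as Ki-67 antigen, 0.57 ± 0.17 (limma adjusted p = 0.0317). The call of probe 1 was lost without replicate 1, 3 or 4, with limma adjusted p of 0.119, 0.129 and 0.178. Over the 6 other genes, the anastomosis lay above the control in every sample with no overlap, a pattern seen in 7.15% of all probes with complete values.

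**Figure D2:**
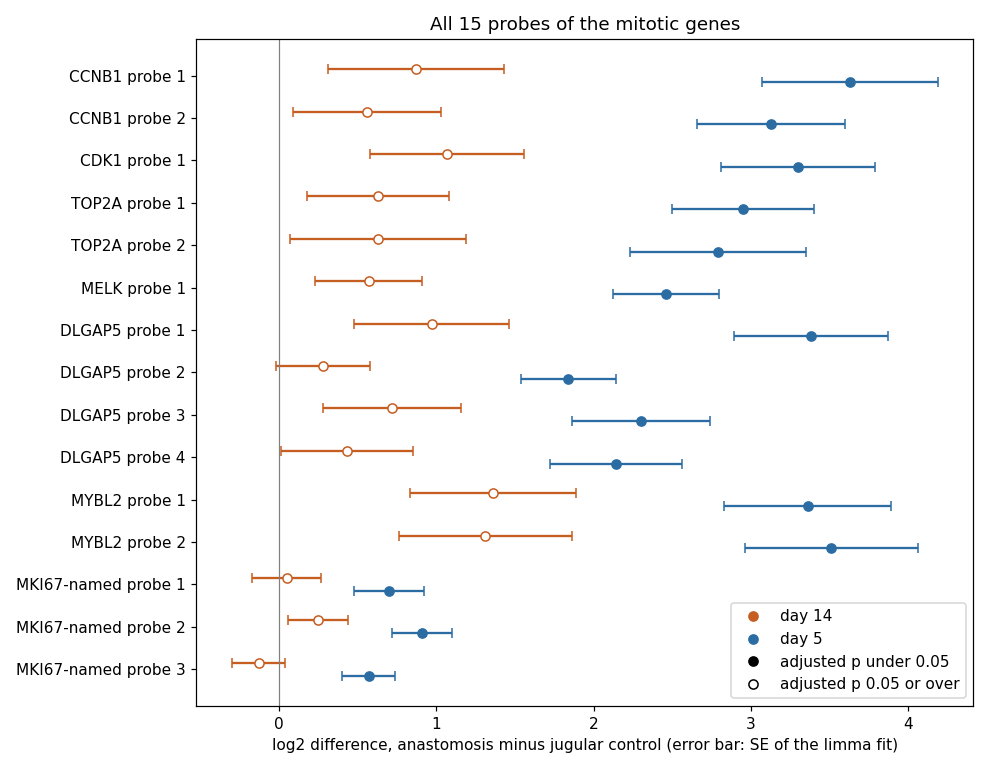
Log2 difference of the anastomosis minus the jugular control for all 15 probes at day 14 and day 5, with the SE of the limma fit as error bars and filled symbols for adjusted p under 0.05. All 15 day 5 symbols are filled, the MKI67-named probes at 0.57 to 0.91 and the others at 1.84 to 3.63, and no day 14 symbol is.

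Downstream of the anastomosis, 6 of the 7 genes were also higher than in the jugular control at day 5, by smaller amounts. In the same samples 3 of 8 measured smooth muscle markers fell, and 3 of 11 macrophage and 2 of 6 endothelial markers rose. The called genes ranged from MELK at 2.87-fold to CCNB1 at 5.66-fold, and 10 of 15 probes passed, where 3.40% of all probes were called higher. The MKI67-named gene, at 0.33 ± 0.22 (limma adjusted p = 0.373), did not pass. With 3 of the 4 replicates the count fell to 0 of 7 without replicate 2, without replicate 3 or without replicate 4, and stayed at 6 without replicate 1.

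CCNB1 had 9.36, 11.39, 11.87 and 11.67 in the downstream samples at day 5, against 8.54, 8.64, 8.45 and 8.65 in jugular controls. Replicate 1 stood low among the downstream samples, yet above every control. The difference was 2.50 ± 0.56 (SE; limma adjusted p = 0.0184). CDK1 had 10.26, 11.65, 11.52 and 11.47 against control levels of at most 9.04, a difference of 2.31 ± 0.49 (limma adjusted p = 0.0154). TOP2A had 11.15, 12.55, 12.63 and 12.63, a difference of 2.06 ± 0.45 (limma adjusted p = 0.0171). Replicate 1 was the low sample for both of these genes as well.

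DLGAP5 had 9.65, 11.52, 11.22 and 10.88 in day 5 downstream samples and differed from the control by 2.36 ± 0.49 (SE; limma adjusted p = 0.0139). MYBL2 had 11.12, 13.24, 13.50 and 13.30 and differed by 2.26 ± 0.53 (limma adjusted p = 0.0219). MELK had 8.23, 9.42, 8.98 and 8.65 and differed by 1.52 ± 0.34 (limma adjusted p = 0.0180). In probe 1 of all 6 genes the replicate 1 pair gave the smallest difference, from 0.45 for MYBL2 to 1.22 for CDK1. No downstream sample of these probes fell among the controls, a separation seen in 3.34% of all probes with complete values. DLGAP5 probes 3 and 4 did overlap the controls.

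**Figure D3:**
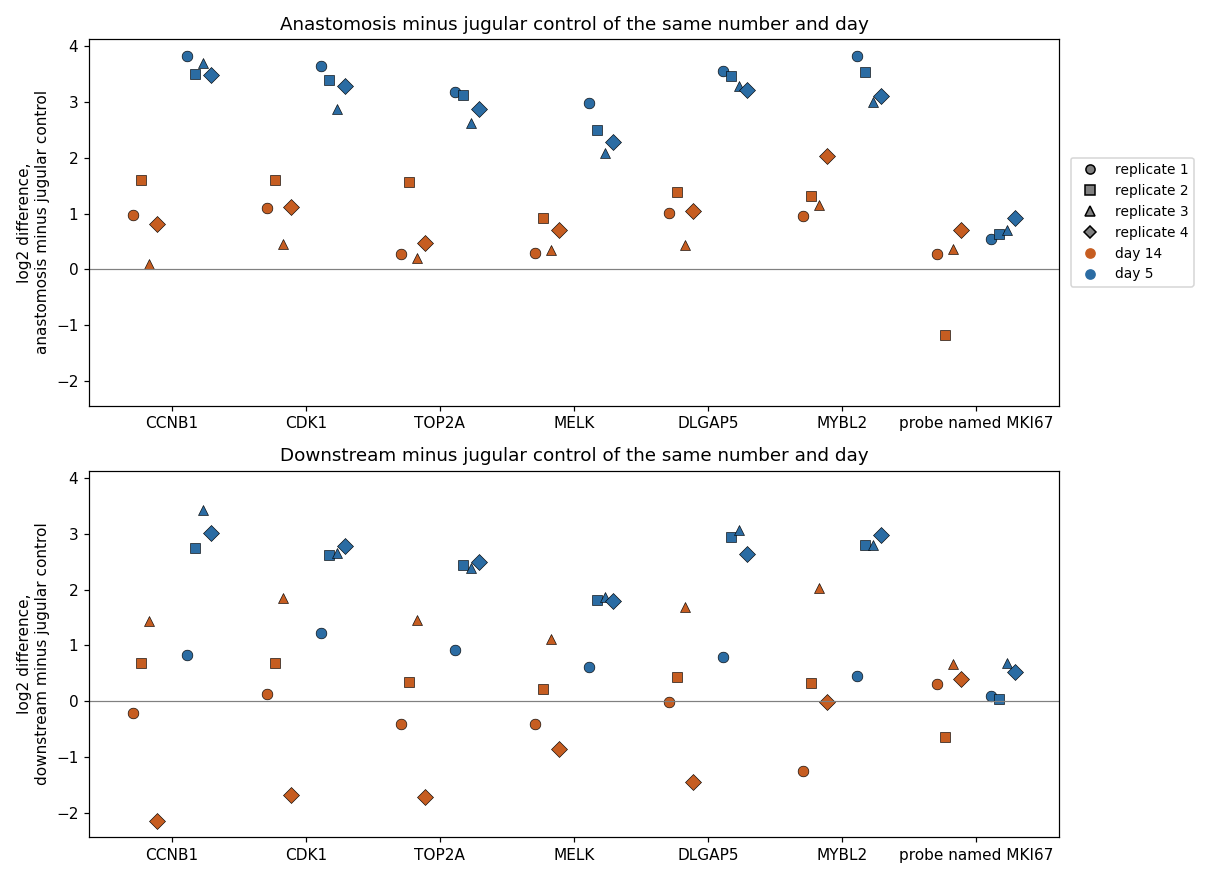
Log2 difference from the jugular control of the same number and day for each mitotic gene, for the anastomosis (upper panel) and the downstream vein (lower panel), with day 14 and day 5 side by side and symbols shaped by replicate. At the anastomosis the day 5 pairs of the 6 genes other than MKI67-named lie between 2.08 and 3.83 and the day 14 pairs between 0.09 and 2.03; downstream, replicate 1 is the low pair at day 5 and the day 14 pairs fall on both sides of 0.

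By day 14 none of the 7 genes passed against the jugular control at either site. At the anastomosis the log2 differences were 1.36 ± 0.53 for MYBL2, 1.07 ± 0.49 for CDK1, 0.97 ± 0.49 for DLGAP5, 0.87 ± 0.56 for CCNB1, 0.63 ± 0.45 for TOP2A, 0.57 ± 0.34 for MELK and 0.05 ± 0.22 for the MKI67-named gene (SE). The limma adjusted p ranged from 0.124 for MYBL2 to 0.931 for the MKI67-named gene, where 4.77% of all probes were called higher. Unadjusted p was under 0.05 for 2 of the 7 genes, CDK1 and MYBL2, and for 25% of all probes. In probe 1 of the 6 other genes all 4 pairs were positive, from 0.09 to 2.03. CCNB1 probe 2 had a replicate 3 pair of -0.21. The share of all probes with 4 positive pairs was not computed, and every mitotic probe overlapped the control range. The values thus showed neither a return to the control level nor a lasting rise above it.

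For CCNB1, CDK1, TOP2A, MELK, DLGAP5 and MYBL2, levels at the anastomosis and in the control were more scattered at day 14 than at day 5. CCNB1 had 10.71, 9.81, 9.16 and 11.44 in anastomosis samples, against 9.73, 8.19, 9.07 and 10.62 in jugular controls. The controls of replicates 1 and 4 were high, and the anastomosis samples of the same numbers were high as well. The SD of CCNB1 was 1.00 at the anastomosis and 1.03 in the control at day 14, compared with 0.11 and 0.09 at day 5. In the downstream vein it was 0.89 at day 14 and 1.16 at day 5, so the order of the days was not the same at every site. Nor was it in every gene, since the MKI67-named gene at the anastomosis had an SD of 0.31 at day 14 and 0.71 at day 5. MELK at the anastomosis differed little between the days, with 0.77 and 0.71. TOP2A was also scattered in its controls, with 11.98, 9.74, 10.51 and 11.74 at day 14, and its anastomosis samples of 12.26, 11.31, 10.73 and 12.21 overlapped them.

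MYBL2 had 13.47, 12.30, 11.56 and 12.99 in day 14 anastomosis samples, against 12.52, 10.99, 10.42 and 10.96 in controls. The ranges overlapped only through the control of replicate 1. CDK1 had 10.95, 10.05, 9.05 and 11.36 against 9.85, 8.44, 8.60 and 10.24, and DLGAP5 had 11.01, 9.83, 8.75 and 10.81 against 10.01, 8.44, 8.32 and 9.77. Replicate 3 was the lowest anastomosis sample in both of these genes. MELK had 9.15, 8.24, 7.26 and 8.26 against 8.85, 7.32, 6.92 and 7.55, with the smallest lead over its controls among the 6 genes.

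Downstream at day 14 the differences from the control were small and of mixed sign between pairs. They ranged from -0.08 ± 0.45 for TOP2A to 0.28 ± 0.53 for MYBL2 (SE; limma adjusted p of 0.760 to 0.991 over the 7 genes), and 0 of 7 were called, where 0.645% of all probes were called higher. None had an unadjusted p under 0.05. CCNB1 had 9.51, 8.87, 10.51 and 8.48 in downstream samples at day 14, so its pairs differed from the control by -0.22, 0.68, 1.44 and -2.14. In replicate 3 the downstream sample was above its control and in replicate 4 below it, in all 6 genes other than MKI67-named; MYBL2 in replicate 4 differed by just -0.01.

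The decay itself was tested as the day 14 minus day 5 change of each difference. For the anastomosis against the jugular control the change was -2.75 ± 0.79 for CCNB1, -2.41 ± 0.69 for DLGAP5, -2.32 ± 0.64 for TOP2A, -2.23 ± 0.70 for CDK1, -2.0 ± 0.75 for MYBL2 and -1.89 ± 0.48 for MELK (SE). The MKI67-named gene gave -0.65 ± 0.31. None passed after adjustment (limma adjusted p of 0.364 to 0.584), and 0 of 36140 probes did. Without adjustment, 6 of the 7 genes and 8.71% of all probes had p under 0.05. In a fit restricted to the anastomosis and control samples, with the replicate block, 6 of 7 passed, all lower (limma adjusted p = 0.0244 for CCNB1), where 0.246% of all probes were called. Both fits took the same paired differences, so the direction of the decay could not differ between them. Its call depended on the fit.

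At the anastomosis alone, the day 14 minus day 5 difference in log2 level was -1.92 ± 0.43 for CCNB1, -1.86 ± 0.48 for CDK1 and -1.73 ± 0.49 for DLGAP5. It was -1.53 ± 0.45 for MELK, -1.51 ± 0.34 for TOP2A, -1.32 ± 0.41 for MYBL2 and -0.73 ± 0.34 for the MKI67-named gene (SE). These comparisons used the 8 samples of the site, all in the same dye, and 0 of 7 genes passed (limma adjusted p of 0.30 to 0.609), where 0.00277% of all probes were called lower. Unadjusted, 6 of 7 genes and 8.70% of all probes had p under 0.05. With the authors' deposited table of values in place of the values computed here, 7 of 7 genes passed, all lower, and 10.6% of all probes were called. Probe 1 of CCNB1, CDK1, TOP2A and DLGAP5 was lower in every day 14 sample than in any day 5 sample. The same held for 2.58% of all probes with complete values. TOP2A probe 2 and DLGAP5 probe 3 overlapped between the days. In MELK and MYBL2, replicate 1 at day 14 overlapped the day 5 range.

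In replicates 1, 2 and 3 each day lay on its own slide, so within a site day and slide cannot be told apart there. Replicate 4 was the number whose samples of both days lay on 1 slide. Within it, day 14 minus day 5 was -0.70 for CCNB1, -0.61 for CDK1 and -0.81 for TOP2A at the anastomosis, smaller than the means over all replicates. In the downstream vein of the same number the change was -3.19 for CCNB1 and -2.60 for TOP2A. Its jugular control moved the other way, by 1.97 for CCNB1 and 1.60 for TOP2A.

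Downstream, the day 14 minus day 5 change of the difference from the control was -2.56 ± 0.79 for CCNB1 and between -1.51 and -2.19 for the 5 further genes, with -0.15 ± 0.31 for the MKI67-named gene (SE). None of the 7 passed (limma adjusted p of 0.650 to 0.934), and 6 had an unadjusted p under 0.05, as did 7.61% of all probes. Within the downstream samples alone, day 14 minus day 5 was -1.73 ± 0.63 for CCNB1 and -1.14 ± 0.40 for MELK, and 0 of 7 passed (limma adjusted p = 1.00 for each). In the jugular control the 6 genes had higher means at day 14 than at day 5, by 0.36 for MELK to 0.83 for CCNB1, with 0 of 7 called and none at an unadjusted p under 0.05. The MKI67-named gene differed by -0.07 ± 0.59 there. In these 6 genes the change against the control thus includes the uncalled day difference of the control means.

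Between the 2 graft-side sites no mitotic gene differed past the threshold at either day, and no probe on the array did. At day 5 the anastomosis exceeded the downstream vein by 0.90 ± 0.45 for TOP2A to 1.13 ± 0.56 for CCNB1 among the 6 genes, and by 0.37 ± 0.22 for the MKI67-named gene (SE; limma adjusted p of 0.416 to 0.595). Replicate 1 supplied most of that lead, with CCNB1 pairs of 3.01, 0.75, 0.28 and 0.47. All 4 pairs were positive in probe 1 of every gene, a pattern whose share over all probes was not computed. Probe 1 of CCNB1, CDK1 and TOP2A did not overlap between the sites. Of all probes with complete values, 1.32% were separate in that direction. TOP2A probe 2 overlapped, whereas MYBL2 probe 2 was separate although its probe 1 was not. Of the 7, MELK alone had an unadjusted p under 0.05, of 0.0145, where 10.2% of all probes did.

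At day 14 the anastomosis exceeded the downstream vein by 0.55 ± 0.34 for MELK to 1.08 ± 0.53 for MYBL2, with -0.13 ± 0.22 for the MKI67-named gene (SE; limma adjusted p of 0.372 to 0.822 and no unadjusted p under 0.05). The CCNB1 pairs were 1.20, 0.94, -1.35 and 2.96, so replicate 3 ran against the others, as it did in all 6 genes. The change of this lead between the days was -0.50 ± 0.31 for the MKI67-named gene, -0.39 ± 0.48 for MELK and nearer to 0 for the 5 further genes, and 0 of 7 passed (limma adjusted p of 0.982 to 0.999).

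Placed in order of mean level, CCNB1 stood highest in the day 5 anastomosis (12.20 ± 0.11), then in the day 5 downstream vein (11.07 ± 1.16), the day 14 anastomosis (10.28 ± 1.00), the day 14 jugular control (9.40 ± 1.03), the day 14 downstream vein (9.34 ± 0.89) and the day 5 jugular control (8.57 ± 0.09; SD, n = 4 each). The day 5 anastomosis samples lay above all others, while the samples of every later pair of neighbours in that order overlapped. The day 5 anastomosis and day 5 control were also the first and the last in CDK1, TOP2A, MELK, DLGAP5 and MYBL2. The MKI67-named gene had another order, with 12.31 ± 0.71 in the day 5 anastomosis and 11.54 ± 1.07 in the day 14 control as its extremes (SD, n = 4), a range under the SD of that control group.

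The 6 genes moved together from sample to sample. Their levels had pairwise Pearson correlations of 0.85 to 0.99 over the 24 samples, which share arrays, dyes and groups. Averaged over the 6 genes after each gene was centred on its mean, the day 5 anastomosis samples had 2.30, 1.96, 1.48 and 1.49, the downstream samples -0.40, 1.27, 1.26 and 1.07 and the jugular controls -1.21, -1.29, -1.44 and -1.55. At day 14 the same average was 0.89, -0.11, -0.94 and 0.82 at the anastomosis, -0.23, -1.06, 0.20 and -1.52 downstream and 0.13, -1.51, -1.39 and -0.22 in the controls. So replicate 1 of the downstream vein at day 5 lay within the range of the day 14 samples on this average. The MKI67-named probes correlated with this average at 0.29, 0.31 and 0.06. The 12 other probes correlated at 0.84 to 0.99 with the same average taken without their own gene.

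Of 5782 other gene symbols, 36 had a Pearson correlation of at least 0.9 with the 7 genes' mean profile over the 24 samples, where the median was 0.06. The 8 most alike were SKA1 at 0.99, E2F8, SPAG5, BUB1, TTK and RRM2 at 0.98, and UBE2T and KIF4A at 0.97. SKA1 and SPAG5 are spindle and kinetochore proteins, BUB1 and TTK are kinases of the spindle checkpoint, KIF4A is a chromosome motor, RRM2 makes DNA precursors, E2F8 is a repressor of E2F targets and UBE2T is a ubiquitin-conjugating enzyme of DNA repair. They were picked for this likeness over the same 24 samples, so their site differences follow from the choice and are given as a description only. At the anastomosis against the control at day 5 these ran from 1.69 ± 0.25 for E2F8 to 3.29 ± 0.53 for RRM2 (SE).

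Other lists of cell cycle genes, also made with earlier results known, gave the context at day 5. Among 15 measured genes of mitotic entry and anaphase, 13 rose and none fell at the anastomosis against the jugular control, with a median difference of 1.57. Over all probes the median was 0.01, 9.75% were called higher and 10.3% lower. They included UBE2C (3.13 ± 0.51) and CDC20 (2.97 ± 0.54), which work with the anaphase-promoting complex, PTTG1 (2.57 ± 0.45), the securin that keeps separase inactive until anaphase, and CCNF (2.39 ± 0.53; SE). Among 24 measured spindle, kinetochore and cytokinesis genes, 23 rose and none fell, with a median of 1.86 and with BIRC5, the survivin of the chromosomal passenger complex, at 3.25 ± 0.56. Downstream, 3 of the 15 and 14 of the 24 rose and none fell, where 3.40% of all probes were called higher and 4.98% lower.

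Genes that act before mitosis moved less uniformly. Of 18 measured genes of G1 to S phase and DNA replication, 11 rose and 1 fell at the day 5 anastomosis, with a median of 0.57, beside the same 9.75% higher and 10.3% lower over all probes. MCM4 (1.66 ± 0.37) and MCM3 (1.61 ± 0.31), parts of the replicative helicase, rose with RRM2 and E2F8, and cyclin D2, CCND2, fell by 0.74 (limma adjusted p = 0.0183). Of 7 measured DREAM and RB family members, E2F4 (0.81 ± 0.15) and E2F5 (0.31 ± 0.10) rose and TFDP2 fell by 1.08. Of 11 measured cell cycle inhibitors, BTG2, an antiproliferative gene, fell by 1.90 and CDKN1B, which encodes the CDK inhibitor p27, fell by 1.35, and none rose. At day 14, none of the measured genes of the first 4 of these lists passed in either direction at the anastomosis, and 2 of the 11 inhibitors fell, CDKN2C by 1.25 and CDKN3 by 0.84, where 4.10% of all probes were called lower.

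**Figure D4:**
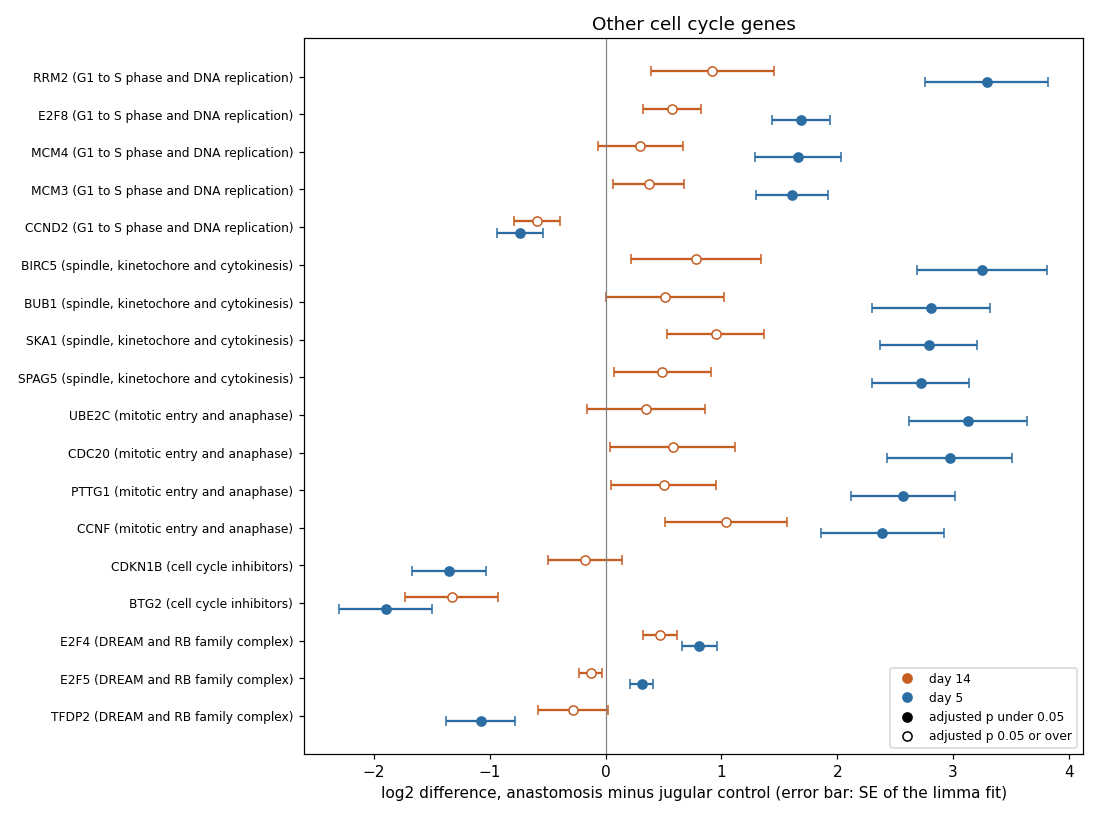
Log2 difference of the anastomosis minus the jugular control for the named genes of 5 other cell cycle lists at day 14 and day 5, with the SE of the limma fit as error bars and filled symbols for adjusted p under 0.05. The named mitotic and spindle genes sit between 2.39 and 3.25 at day 5 and between 0.35 and 1.04 at day 14, where all symbols are open.

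Markers of other cell types were read in the same samples, against the same shares of 9.75% higher and 10.3% lower over all probes at the day 5 anastomosis. There, 6 of 8 measured contractile smooth muscle markers fell and none rose, of which CNN1 fell by 2.83 and ACTA2 fell by 2.20. Their mean level lay at 11.79 to 13.22, against 13.99 to 14.93 in the controls. Of 11 measured monocyte and macrophage markers 3 rose, MSR1 (2.50 ± 0.39), AIF1 (1.43 ± 0.43) and CD163 (1.35 ± 0.28), with list means of 11.53 to 12.46 against 11.11 to 11.72. Of 6 measured endothelial markers KDR (2.13 ± 0.33) and CDH5 (1.5 ± 0.29) rose, with list means of 12.42 to 12.51 against 11.74 to 12.07. Elsewhere at the day 5 anastomosis, 1 of 11 measured T and NK cell markers rose (NKG7, 0.74 ± 0.25), 1 of 3 B and plasma cell markers fell (XBP1, by 0.61) and 2 of 7 skeletal muscle markers fell (ACTA1 and CKM); 1 of 11 is about the share over all probes. None of the 6 fibroblast markers, 7 adipocyte markers, 1 neutrophil marker and 1 blood cell marker measured passed.

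In the day 5 downstream vein, 3 of the 8 smooth muscle markers fell, PLN, CNN1 and ACTA2, with a median difference of -1.81, where 4.98% of all probes were called lower. Their mean level lay at 11.61 to 13.43, against 13.99 to 14.93 in the controls. Of the macrophage markers MSR1 (2.19 ± 0.39), CD163 (1.19 ± 0.28) and VSIG4 (0.89 ± 0.26) rose, and of the endothelial markers KDR (1.70 ± 0.33) and CDH5 (1.17 ± 0.29; SE) did, where 3.40% of all probes were called higher. XBP1 of the B and plasma cell list and CXCR2, the 1 neutrophil marker measured, fell, and no T and NK cell, fibroblast, adipocyte, skeletal muscle or blood cell marker passed.

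At day 14, when no mitotic gene passed at the anastomosis, 4 of the 11 macrophage markers rose there, MSR1 (2.78 ± 0.39), VSIG4 (1.56 ± 0.26), CD163 (1.22 ± 0.28) and C1QB (0.37 ± 0.10), with a list median of 0.98, compared with 0.55 at day 5. KDR (1.68 ± 0.33), the T and NK cell markers NKG7 (0.86 ± 0.25) and CD4 (0.42 ± 0.12) and the fibroblast marker THY1 (1.12 ± 0.32; SE) also rose, where 4.77% of all probes were called higher. CXCR2 fell by 2.15, and the skeletal muscle markers MYH7 and TNNC2 fell by 0.83 and 0.67, where 4.10% of all probes were called lower. None of the 8 smooth muscle markers passed, although their median difference was -1.18, compared with -1.90 at day 5. Their mean level was 12.22 to 12.58 at the day 14 anastomosis and 11.42 to 14.82 in the controls. In the day 14 downstream vein KDR (1.72 ± 0.33) rose and CXCR2 fell by 1.42, and no other marker passed. Of all probes, 0.645% were called higher and 0.268% lower in that comparison. These marker genes beyond the naming rule were named after their values were seen. The part of the markers in the mitotic values was not tested at either site.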

How the data were processed

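Expression was measured on 16 two-colour Agilent arrays. Per the file headers, the deposited scanner files held spot intensity extracted with Agilent Feature Extraction, whose protocol version differed between replicates 1 and 2 on the one hand and 3 and 4 on the other. A deposited table of log2 values came with them, whose scale, centring and processing are not stated; it served as an alternative. The 8 green channels of the downstream arrays carry no labelled sample and were not analysed. Here the intensities were background-corrected (normexp, offset 50), normalised by loess within and Aquantile between arrays, and averaged per probe. Probes well above background in at least 4 of 24 samples were tested: 36140 probes, with limma 3.58.1 in R 4.3.3 and Benjamini-Hochberg adjustment at 0.05.

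Sites were compared with the replicate number within day as a block, since controls and anastomoses share arrays; same-day samples of a number deviated from their group means together, with correlations of 0.18 to 0.81. Days within a site were compared without a block. The number of arrays limits the precision. Gene names came from the files and from RefSeq's pig gene table (Sscrofa11.1); 9037 probes had 1 symbol, 15 had several and 34551 had none. The files name no genome build, so no coordinates are given. The members and all gene lists were chosen with earlier results of these data known. Named genes are all members with every probe, the 4 largest called differences of each further list at the day 5 anastomosis with up to 2 in the opposite direction, and the 8 symbols most alike in profile.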

Additional observations from a re-analysis of the deposited data

Results flagged for a closer look

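Dixon's test, applied to the 42 sets of 4 samples formed by 7 genes and 6 groups, singled out a sample in 4 of them, where chance alone gives about 1 in 20. At the day 5 downstream vein, replicate 1 was far below the other samples of its group in CDK1 (10.26 against 11.47 to 11.65), TOP2A (11.15 against 12.55 to 12.63) and MYBL2 (11.12 against 13.24 to 13.50). These are 1 library seen in 3 genes that move together, not 3 separate events. CCNB1 in the day 5 anastomosis was singled out because replicate 1, at 12.37, lay above 3 samples that were all at 12.14; the whole range of that group was small.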

How the results depend on the processing

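The counts of mitotic genes called were computed under 22 alternatives, of which 5 were chosen after seeing the data, and in no called gene did the direction turn. Slide as a random block within a site could not be fitted, since each site had 8 samples on 7 slides; on all 24 samples it left 0 of 7 called for every day comparison. For the anastomosis against the jugular control at day 5, 7 of 7 were called; leaving out each replicate gave 6 to 7, and the fit on replicates 1 and 2 called 0 and that on replicates 3 and 4 called 3. At day 14 the same comparison gave 4 with median centring in place of loess, where 45.0% of all probes were called, and 1 with the authors' deposited table. For the downstream vein at day 5 the count of 6 ranged from 0 to 6 with each replicate left out, was 0 in the pair of replicates 1 and 2 and was 1 in that of replicates 3 and 4; at day 14 median centring gave 1. Day 14 against day 5 at the anastomosis gave 7 with the deposited table, and the change of the anastomosis against the control gave 6 with only the groups compared and the replicate block. Without the replicate block, 6 of 7 passed at the day 5 anastomosis, where the MKI67-named gene was lost (limma adjusted p = 0.534). At the day 5 downstream vein 5 of 7 passed. The replicate block over the 2 days changed no call, and no label pairs the days. Same-numbered samples of a site deviated together with r over 0.1 in 11 of 12 cases (0.07 to 0.63). Protocol version also differed between replicates 1 and 2 and replicates 3 and 4. Whether the days share animals was not tested. With median centring, 59.2% of the calls at the day 5 anastomosis were higher, compared with 48.7% with loess; downstream these shares were 58.4% and 40.6% at day 5 and 44.2% and 70.6% at day 14. The causes of these shifts were not tested.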
